A study of Nicotiana tabacum with 16 samples.

Results

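The gene models described here set the roots of the triple recessive tobacco K326 nic1/nic2/myc2a apart from the roots of K326, K326 nic1/nic2 and K326 myc2a. They were chosen by a gap. For each gene model the lowest library of the other 3 genotypes was compared with the highest library of the triple recessive, or the reverse, on the scale log2(CPM + 1), where CPM is the count scaled to a library total of 1000000. The 40 gene models with the largest gap in each direction are the members, 80 of 63697 in the count table. Before ranking, a gene model needed a mean of at least 5 CPM over the 16 libraries and of at least 0.5 CPM in the triple recessive, which 27812 passed. All 80 members passed both limits because the limits were part of the choice. The gap itself chose the members, so the levels of the triple recessive below are a description and carry no test.

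Root RNA was sequenced in 16 libraries of nearly isogenic tobacco (Nicotiana tabacum): 4 of K326, 3 of K326 nic1/nic2 (recessive alleles at Nic1 and Nic2), 5 of K326 myc2a (recessive allele at Myc2a) and 4 of K326 nic1/nic2/myc2a (recessive alleles at all 3 loci). All plants were grown in pots whose lower end stood in water, and all were topped at flowering, with roots taken 18 h later. The labels give between 3 and 5 plants per genotype and do not say whether a library is 1 plant, so p-values measure the spread between these libraries, which may be technical. How each recessive line was bred, and how many plants it descends from, is not given in the sources used here, so an effect of the alleles and any other difference between the lines cannot be told apart.

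Nicotine is made in tobacco roots and moves to the leaves, and removing the shoot tip raises its synthesis through jasmonate signalling. MYC2a is a bHLH transcription factor that jasmonate releases from repression, and it acts on nicotine genes directly and through ERF transcription factors. The Nic2 locus holds a cluster of such ERF genes, and recessive alleles at Nic1 and Nic2 lower the nicotine content of the plant. The 4 genotypes allow each root gene model to be compared with nic1/nic2 affected, with myc2a affected, and with both. Tobacco is an allotetraploid with many near-identical gene pairs, and reads from such pairs can be shared between gene models.

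The gene models carry only an identifier, in which the digits after Ntab are called the ID group here and the digits after g the serial number. Whether serial numbers follow chromosome order is not given in the sources used here. No identifier matched the RefSeq table of tobacco genes (0 matches), so no member has a gene name, a function or a sequence here, and the nicotine, ERF and MYC2 genes were not analysed here by name. For the same reason neither the mutated genes nor root marker genes could be used to check the labels. Total counts per library lay between 32167776 and 40858135, except for K326 replicate 2 with 71836276, and the triple recessive libraries lay between 32687387 and 34445942. Libraries nic1/nic2 replicate 3 and myc2a replicate 5 had the highest TMM scaling factors (trimmed mean of M values), 1.09 and 1.06, against 0.967 to 1.03 in the others, and some of the values below are given without them.

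The triple recessive was set apart from the other 12 libraries without overlap in few gene models, and mostly by small gaps. In whole roots, fewer cells of a type and less RNA per cell cannot be told apart. The gap was above 0 for 54 gene models in the lower direction, 0.194% of 27812, and for 134 in the higher direction, 0.482%. On TMM-scaled library sizes the counts were 83 lower and 120 higher, so the excess of higher gene models depended in part on the scaling. For comparison, the same rule with the 4 K326 libraries set apart from the other 12 gave 76 gene models lower (0.273%) and 30 higher (0.108%). With the 3 nic1/nic2 libraries it gave 289 lower (1.04%) and 272 higher (0.978%), and with the 5 myc2a libraries 41 lower (0.147%) and 10 higher (0.036%), though groups of 3 and 5 are not of the same size. All 40 members of each direction had a gap above 0. In the lower direction 3 members had a gap of at least 0.5 on the log2 scale and 15 of at least 0.1. In the higher direction 1 member reached 0.5 and 31 reached 0.1. The last member in the lower direction, Ntab16g001270-1.1, had a gap of 0.022, and the next gene model outside, Ntab05g000480-1.1, also had 0.022. In the higher direction the last member, Ntab15g010510-1.1, had 0.074 and the next, Ntab11g024790-1.1, 0.070. Neither limit marks a step in the values.

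**Figure D1:**
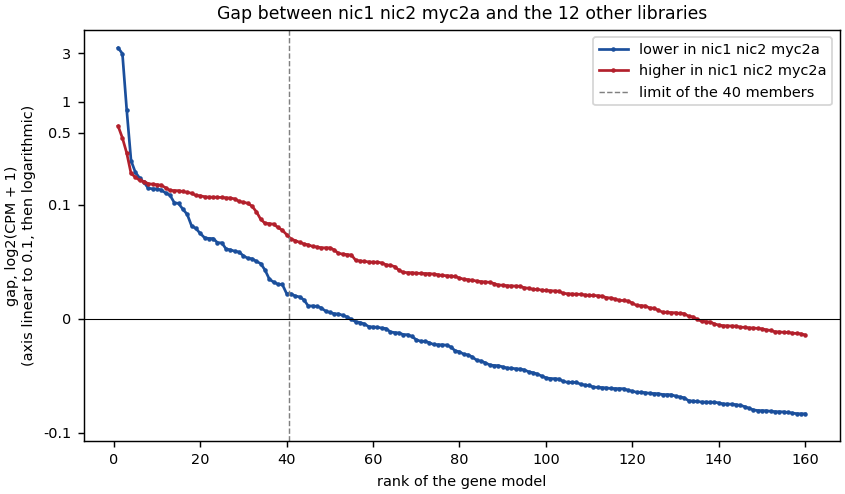
Gap on the log2(CPM + 1) scale (vertical axis, linear to 0.1 and logarithmic above) against the rank of the gene model (horizontal axis) for the lower and higher directions, with a dashed line at the limit of the 40 members. The lines drop from 3.37 and 0.58 to under 0.3 by the fourth rank. They then fall further, to 0.022 and 0.074 at rank 40, with no step at the limit, and reach 0 after 54 and 134 gene models.

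Membership changed with single libraries. Without triple recessive replicate 3, 4 of the 40 lower members stayed among the 40 largest gaps, and without myc2a replicate 1, 13 did. Of the higher members, 14 of 40 stayed without nic1/nic2 replicate 3. All 40 members of each direction still had a gap above 0 in these cases. A gap cannot shrink when a library is left out, so this was fixed for every member that still passed the limits. The numbers of positive gaps could likewise fall only through the limits. Leaving out triple recessive replicate 3 raised the number of positive gaps in the lower direction from 54 to 297, and leaving out myc2a replicate 1 raised it to 177. Without triple recessive replicates 1 or 2 it was 108 or 107. In the higher direction the number rose from 134 to 322 without nic1/nic2 replicate 3 and also to 322 without triple recessive replicate 1. It was 257 without myc2a replicate 1, and 291 or 242 without triple recessive replicates 3 or 4. Over 24 alternatives to the rule, 4 lower and 7 higher members stayed among the 40 largest in every one. The 4 lower ones were Ntab19g019580-1.1, Ntab19g019560-1.1, Ntab17g022870-1.1 and Ntab10g015700-1.1. The 7 higher ones were Ntab03g030050-1.1, Ntab17g022270-1.1, Ntab01g019930-1.1, Ntab23g018920-1.1, Ntab18g023100-1.1, Ntab04g010630-1.1 and Ntab03g031440-1.1.

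**Figure D2:**
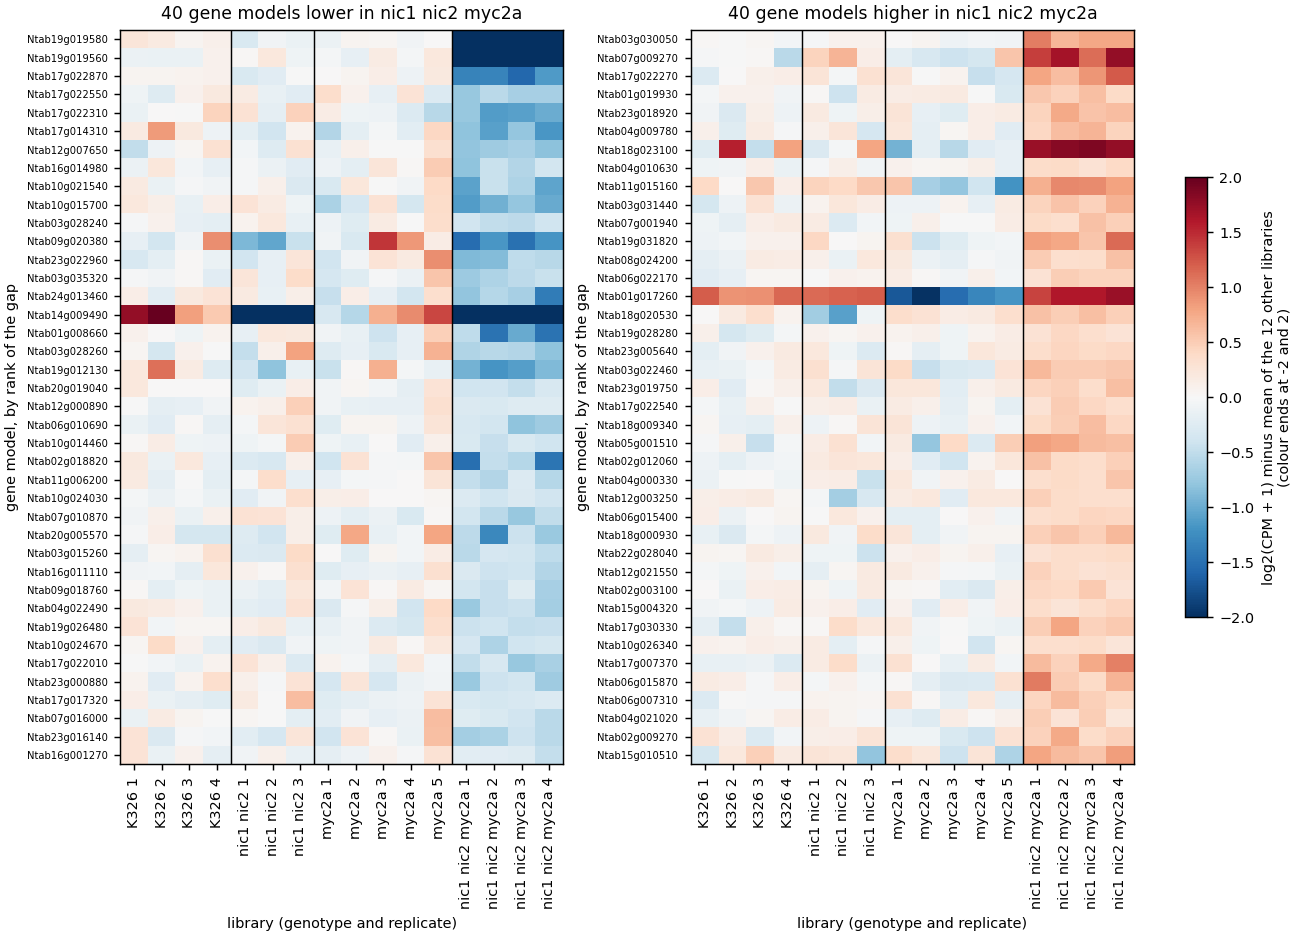
Each row is a member, ordered by its gap, each column a library, and colour gives log2(CPM + 1) minus the mean of the 12 libraries outside the triple recessive, limited to -2 and 2. The 4 columns of the triple recessive stand apart in every row by construction, while rows such as Ntab14g009490 on the left and Ntab01g017260 on the right also differ among the other 3 genotypes.

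A pair of gene models of ID group 19 held the largest gaps. Ntab19g019580-1.1 was at 84.3, 80.8, 74.3 and 76.8 CPM in the K326 libraries, 57.96, 67.8 and 65.4 CPM in nic1/nic2, 65.9, 74.4, 73.7, 68.1 and 72.2 CPM in myc2a and 4.71, 3.95, 3.67 and 2.52 CPM in the triple recessive. The triple recessive was at 5.17% of the mean of the other 12 libraries, and the lowest of those 12, nic1/nic2 replicate 1, was over 10 times the highest triple recessive library. Ntab19g019560-1.1 was at 40.7, 40.1, 40.2 and 46.99 CPM in the K326 libraries, 44.9, 51.4 and 41.7 CPM in nic1/nic2, 42.7, 39.1, 49.6, 43.1 and 51.5 CPM in myc2a and 2.47, 2.87, 4.16 and 2.82 CPM in the triple recessive. Here the triple recessive was at 6.95% of the others, and the 4 libraries summed to 413 counts, so the remaining level was not 0. Both lie among gene models that had nearly no counts in the triple recessive. Of these, 4 had 5 CPM or more on average, and the minimum of 0.5 CPM in the triple recessive kept them from being members.

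Those 4, chosen after their values were seen, were Ntab19g019550-1.1, Ntab19g019570-1.1, Ntab19g019590-1.1 and Ntab19g019610-1.1. Ntab19g019550-1.1 had a mean of 9.45 CPM in the other 12 libraries and no count in the 4 triple recessive libraries, and Ntab19g019570-1.1 had 8.68 CPM and no count. A count of 0 in the smallest of these 4 libraries allows a level of up to 0.0918 CPM (3 counts, counting error only). Ntab19g019590-1.1 had 29.9 CPM in the others and 4 counts in all in the triple recessive, and Ntab19g019610-1.1 had 18.7 CPM and 13 counts. So within serial numbers 19530 to 19610 the neighbours were at 0 to 0.513% of the others and the pair of members at 5.17 and 6.95%. Whether the pair shares reads with near-identical copies elsewhere was not tested. Without the minimum, 58 gene models had a positive gap in the lower direction, and these 4 would have been members.

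Serial numbers 22010 to 22870 of ID group 17 held 6 members, 4 lower and 2 higher. Ntab17g022870-1.1 was at 30.6, 30.4, 30.7 and 31.2 CPM in the K326 libraries, 23.7, 24.9 and 29.3 CPM in nic1/nic2, 29.4, 30.4, 32.3, 27.2 and 33.7 CPM in myc2a and 10.96, 11.2, 9.18 and 12.8 CPM in the triple recessive. The triple recessive was at 37.5% of the others, and the K326 libraries lay within 1 CPM of each other. Ntab17g022550-1.1 was at 97.9, 87.05, 110.0 and 119.7 CPM in the K326 libraries, 116, 93.8 and 88.5 CPM in nic1/nic2, 133, 111, 92.4, 127 and 85.8 CPM in myc2a and 60.9, 71.1, 65.6 and 64.99 CPM in the triple recessive. This gene model was at 62.4%, with the highest triple recessive library under the lowest of the others, myc2a replicate 5, and a gap of 0.27, or 0.29 without that library. Ntab17g022310-1.1 was at 13.1, 14.5, 14.4 and 20.05 CPM in the K326 libraries, 17.9, 12.7 and 20.2 CPM in nic1/nic2, 16.1, 13.6, 13.3, 11.8 and 9.53 CPM in myc2a and 8.13, 6.10, 6.27 and 6.76 CPM in the triple recessive. Its triple recessive level was 46.2% of the others, and its gap, also limited by myc2a replicate 5, was 0.21, or 0.49 without that library. The fourth lower member there, Ntab17g022010-1.1, was at 8.94 ± 1.35 CPM in the triple recessive (SD, n = 4) and 13.2 ± 0.798 CPM in K326 (n = 4).

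Next to these, Ntab17g022270-1.1 was higher. Ntab17g022270-1.1 was at 264, 319, 340.3 and 350.0 CPM in the K326 libraries, 382, 311 and 393 CPM in nic1/nic2, 377, 315, 335, 232 and 252 CPM in myc2a and 553, 491, 589.7 and 747 CPM in the triple recessive. It was the most abundant of the higher members, at 185% of the other 12 libraries, and triple recessive replicate 4 stood above the other 3. The other higher member, Ntab17g022540-1.1, was at 28.8 ± 2.00 CPM in the triple recessive (SD, n = 4) against 21.4 ± 1.56 CPM in K326 (n = 4), beside Ntab17g022550-1.1, which was lower. The span held 43 gene models that passed the level limits, with a median log2 difference of 0.06 between the triple recessive and the others, against 0.03 over all gene models that passed the limits. Among its 37 gene models that are not members, 3 (8.11%) differed by over 0.5 on the log2 scale, against 5.39% of all that passed the limits. The span was chosen after the members' positions were seen. In all, 10 of the 80 members carried an identifier of ID group 17, which holds 5.56% of the gene models that passed the limits. ID group 3 held 7 members (5.58% of those gene models), and ID groups 10, 19 and 23 held 6 each (4.18, 6.00 and 4.16%). These ID groups were also picked after the members were known, and the differences between such shares were not tested.

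**Figure D3:**
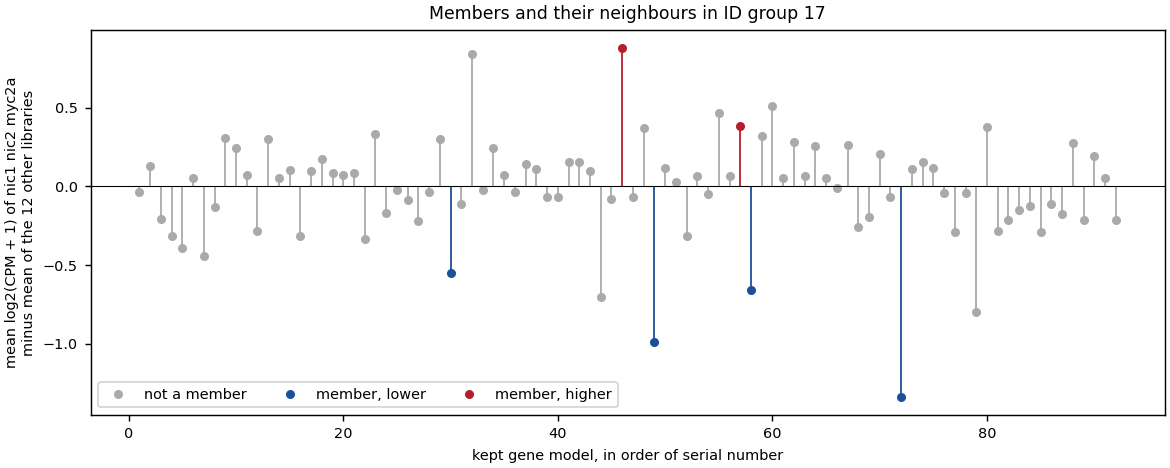
Log2 difference between the mean of the triple recessive and the mean of the 12 other libraries (vertical axis) for gene models of ID group 17 in order of serial number (horizontal axis), with lower members in blue, higher members in red and other gene models in grey. Lower and higher members lie within one span whose median is 0.06, and Ntab17g022550-1.1 (-0.66) lies beside Ntab17g022540-1.1 (0.39).

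The other lower members had gaps of 0.18 or less, but some differed by as much as those above or more. The lowest ratio of all was that of Ntab14g009490-1.1, described below, at 2.78% of the others. Ntab10g015700-1.1 was at 17.2, 16.2, 13.3 and 16.4 CPM in the K326 libraries, 18.04, 16.6 and 13.96 CPM in nic1/nic2, 9.19, 11.4, 18.2, 11.4 and 19.4 CPM in myc2a and 6.31, 7.14, 8.23 and 6.88 CPM in the triple recessive. The triple recessive was at 47.3% of the others, and the nearest library of the others was myc2a replicate 1. Ntab17g014310-1.1 was at 17.2, 27.9, 17.3 and 13.9 CPM in the K326 libraries, 12.9, 11.3 and 15.9 CPM in nic1/nic2, 9.64, 12.98, 14.6, 12.9 and 20.4 CPM in myc2a and 8.19, 6.53, 8.38 and 6.14 CPM in the triple recessive. This gene model was at 46.9%, and K326 replicate 2 was its highest library. Ntab12g007650-1.1 was at 13.4, 17.9, 19.9 and 23.9 CPM in the K326 libraries, 18.5, 16.00 and 23.9 CPM in nic1/nic2, 17.2, 20.7, 19.2, 19.03 and 24.2 CPM in myc2a and 10.7, 11.3, 11.8 and 10.5 CPM in the triple recessive. Its triple recessive libraries lay within 2 CPM of each other, at 56.9% of the others. Of the 40 lower members, 3 were under 10% of the others, 7 at 10 to under 50%, 23 at 50 to under 75% and 7 at 75% or more, with a median of 64.2%.

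Ntab10g021540-1.1, a more abundant member, had 95.6 ± 9.51 CPM (SD, n = 4) in K326, 92.3 ± 12.6 in nic1/nic2 (n = 3), 100.9 ± 19.3 in myc2a (n = 5) and 55.9 ± 12.3 in the triple recessive (n = 4). Ntab16g014980-1.1 had 8.35 ± 1.18 CPM (SD, n = 4) in K326 and 5.54 ± 0.841 in the triple recessive (n = 4), or 64.4% of the others. Ntab09g020380-1.1 was the most variable of the first 12, from 8.70 to 52.6 CPM in the 12 other libraries and at 6.92 ± 1.04 CPM in the triple recessive (SD, n = 4). In that gene model nic1/nic2 lay between the triple recessive and K326, at 10.7 ± 2.65 CPM (SD, n = 3).

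A close pair of lower members lay in ID group 3. Ntab03g028240-1.1 was at 6.94, 6.30, 6.15 and 6.79 CPM in the triple recessive, against 7.74 to 12.1 CPM (median 9.20) in the other 12 libraries. Ntab03g028260-1.1 was at 5.21, 5.43, 5.26 and 4.42 CPM, against 5.80 to 15.5 CPM (median 7.94). In the second of these, nic1/nic2 replicate 3 and myc2a replicate 5 were the highest libraries. Its gap of 0.081 was set by the lowest of the 12, nic1/nic2 replicate 1, so leaving out either of the highest could not change it. This pair and the pair in ID group 19 were the only lower members within 100 serial numbers of each other, and no pair of higher members was.

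Among the higher members, Ntab03g030050-1.1 had the largest gap. Ntab03g030050-1.1 was at 23.9, 23.3, 24.1 and 22.4 CPM in the K326 libraries, 23.1, 24.8 and 24.9 CPM in nic1/nic2, 23.7, 24.5, 21.7, 22.6 and 22.2 CPM in myc2a and 48.5, 37.8, 40.9 and 40.8 CPM in the triple recessive. The 12 other libraries lay within 4 CPM of each other, and the triple recessive was at 179% of their mean. Nearby, Ntab03g030010-1.1 and Ntab03g030030-1.1, which are no members and were named after their values were seen, also had positive gaps in the higher direction, of 0.04 and 0.06. Their log2 differences between the triple recessive and the others were 0.50 and 0.79, against 0.81 for Ntab03g030050-1.1. Ntab07g009270-1.1 was at 4.19, 4.25, 4.32 and 2.62 CPM in the K326 libraries, 6.19, 7.41 and 4.76 CPM in nic1/nic2, 3.61, 3.20, 2.94, 3.13 and 6.70 CPM in myc2a and 12.7, 15.7, 10.5 and 16.7 CPM in the triple recessive. Here the triple recessive was at 313% of the others, and nic1/nic2 replicate 2 and myc2a replicate 5 came nearest to it.

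Ntab18g023100-1.1 was at 18.8, 68.3, 15.9 and 40.2 CPM in the K326 libraries, 18.1, 21.8 and 39.6 CPM in nic1/nic2, 11.1, 19.6, 14.96, 19.03 and 19.9 CPM in myc2a and 76.9, 81.95, 84.5 and 78.5 CPM in the triple recessive. This member had the highest ratio, 314% of the other 12 libraries, but a wide spread in K326, where replicate 2 came near to the triple recessive. Without K326 replicate 2 its gap was 0.92 in place of 0.17. Ntab01g019930-1.1 was at 15.4, 16.9, 16.9 and 15.00 CPM in the K326 libraries, 16.1, 11.6 and 17.9 CPM in nic1/nic2, 17.8, 17.9, 18.04, 15.8 and 12.7 CPM in myc2a and 23.4, 22.3, 24.6 and 20.9 CPM in the triple recessive. The triple recessive was at 143% of the others. Of the 40 higher members, 27 were under 150% of the others, 10 at 150 to under 200% and 3 at 200% or more, with a median of 143%.

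Ntab23g018920-1.1 had 15.8 ± 1.93 CPM (SD, n = 4) in K326 and 25.9 ± 2.41 in the triple recessive (n = 4), or 154% of the other 12 libraries. Ntab04g010630-1.1 was at 52.2 ± 4.44 and 68.9 ± 2.25 CPM in these genotypes (SD, n = 4 each), or 129%. The first ratio lay above the median of the higher members and the second below it. The rule favours members with little spread between libraries. Ntab19g031820-1.1 was at 4.81 ± 0.380 and 9.30 ± 1.75 CPM (SD, n = 4 each), Ntab03g031440-1.1 at 8.74 ± 1.85 and 13.8 ± 1.23 CPM. Ntab04g009780-1.1 was at 4.78 ± 0.708 and 7.38 ± 0.727 CPM (SD, n = 4 each), and Ntab07g001940-1.1 at 8.01 ± 1.07 and 11.2 ± 0.936 CPM. These 4 had ratios to the other 12 libraries of 140.2 to 192%.

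**Figure D4:**
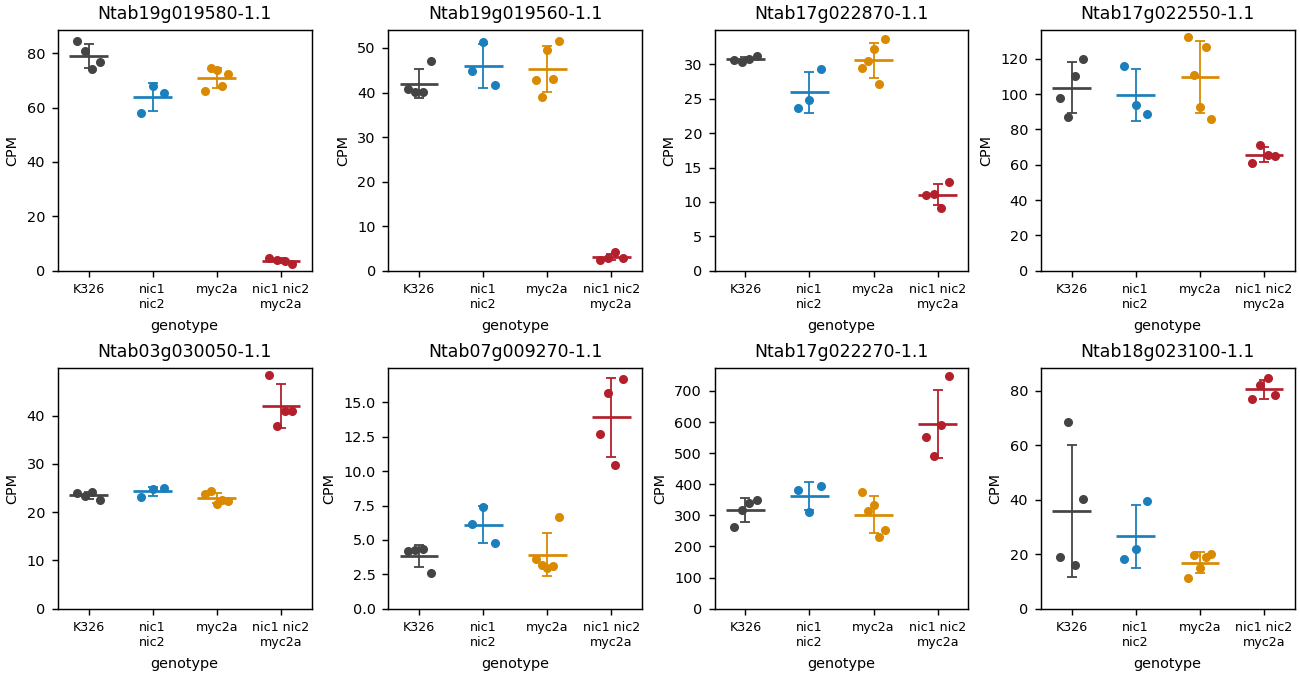
CPM of 4 lower members (top) and 4 higher members (bottom) in every library of the 4 genotypes (points), with the genotype mean (line) and SD (bars) on axes that start at 0. In each panel the 4 triple recessive libraries lie outside the range of the other 12, by most in Ntab19g019580-1.1 and Ntab19g019560-1.1, while K326 replicate 2 of Ntab18g023100-1.1 comes near them.

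Whether the members differed among the other 3 genotypes was tested, since the rule set only the triple recessive against the rest. A large gap favours gene models with little spread among these 12 libraries, which lowers the number of such differences. edgeR's quasi-likelihood test with Benjamini-Hochberg adjustment over 43009 gene models called 1 of 40 lower and 0 of 40 higher members between nic1/nic2 and K326, where 0.918% of all gene models were called (0.579% lower and 0.339% higher in nic1/nic2). At an unadjusted p under 0.05 there were 8 lower and 4 higher members, against 18.0% of all gene models. DESeq2 called 2 lower and 2 higher members and 2000 gene models in all, equal to 4.65% of the 43009 that edgeR tested. DESeq2 was run on every gene model with a count in any library, so its own share was not computed. With quality weights, limma-voom called 0 and 1, with 0.977% of all gene models called. Between myc2a and K326, edgeR called 0 lower members and 1 higher member, with 0.17% of all gene models called (0.137% lower and 0.0326% higher in myc2a), and 2 and 3 had an unadjusted p under 0.05, against 5.21% of all gene models. DESeq2 and limma-voom gave 0 and 1 as well. In all, DESeq2 called 248 gene models, equal to 0.577% of the 43009 that edgeR tested, and limma-voom called 1.10%. Between myc2a and nic1/nic2, 1 lower and 2 higher members were called, with a background of 1.05% (0.477% lower and 0.572% higher in myc2a). At an unadjusted p under 0.05 there were 6 of each, against 16.3% of all gene models. Counts of 0 to 2 in 40 are too small to be set apart from these shares.

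The median log2 fold change of the lower members was -0.07 in nic1/nic2 and 0.005 in myc2a against K326, and that of the higher members -0.01 and 0.002. Over all gene models tested it was -0.003 and 0.005. Without sign, the medians in nic1/nic2 were 0.14 for lower and 0.11 for higher members, against 0.28 over all. In myc2a they were 0.10 and 0.09, against 0.15. The rule favours little spread among these libraries, and the members also had to pass the level limits. The 95% intervals lay within 1 log2 unit of K326 for 36 of 40 lower and 36 of 40 higher members in nic1/nic2, and for 37 of each in myc2a. Within 0.5 log2 units they lay for 19 lower and 20 higher members in nic1/nic2 and for 28 and 29 in myc2a. For the rest a moderate difference from K326 in a single or double recessive genotype was thus not bounded by these data. The shares of all gene models with intervals inside these limits were not computed, so the counts are no trait of the members. Among the leading gene models the width of the intervals varied. Ntab03g030050-1.1 had a log2 fold change of -0.04 (95% interval -0.26 to 0.19) in nic1/nic2 and -0.05 (95% interval -0.25 to 0.15) in myc2a. Ntab19g019580-1.1 had -0.40 (95% interval -0.69 to -0.10) in nic1/nic2, an edgeR adjusted p of 0.155. Ntab07g009270-1.1 had 0.59 (95% interval 0.01 to 1.17) in nic1/nic2 and -0.01 (95% interval -0.52 to 0.50) in myc2a. Ntab18g023100-1.1 had -0.55 (95% interval -1.35 to 0.26) in nic1/nic2 and -1.11 (95% interval -1.81 to -0.42) in myc2a, the latter with an edgeR adjusted p of 0.409.

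In 3 members the data went against a difference limited to the triple recessive. Ntab14g009490-1.1 was at 91.4, 261, 47.2 and 38.2 CPM in the K326 libraries, 2.54, 3.78 and 2.46 CPM in nic1/nic2, 21.01, 17.4, 43.6, 51.4 and 67.7 CPM in myc2a and 2.23, 1.86, 1.62 and 0.297 CPM in the triple recessive. It fell in nic1/nic2 against K326 on the log2 scale by 5.31 ± 0.75 (SE), with an adjusted p of 0.00135 by edgeR. It was higher in myc2a than in nic1/nic2, with a difference of 3.83 ± 0.69 (SE), with an adjusted p of 0.00972 by edgeR. Both genotypes with nic1/nic2 were low, and the triple recessive fell just outside the nic1/nic2 range. The first call was lost under limma-voom (adjusted p = 0.058), within a range of 1.89e-11 to 0.058 over 23 alternatives. The second was lost under limma-voom (adjusted p = 0.114) and without nic1/nic2 replicate 3 (adjusted p = 0.0738 by edgeR), within a range of 2.61e-06 to 0.114.

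Ntab01g017260-1.1 was at 17.7, 13.9, 14.2 and 16.8 CPM in the K326 libraries, 16.7, 17.1 and 17.6 CPM in nic1/nic2, 1.48, 1.03, 1.80, 2.26 and 2.53 CPM in myc2a and 19.5, 23.5, 23.4 and 25.7 CPM in the triple recessive. It fell in myc2a against K326, where the log2 difference was -3.13 ± 0.19 (SE), with an adjusted p of 6.05e-08 by edgeR. Between myc2a and nic1/nic2 the log2 difference was -3.17 ± 0.20 (SE), with an adjusted p of 4.37e-08 by edgeR. So the low genotype was myc2a, in 5 of 5 libraries, and the triple recessive, which also carries myc2a, was at 147% of K326, with no overlap. Over 23 alternatives the adjusted p of the first stayed at or under 2.23e-06 and of the second at or under 4.85e-06. Ntab18g020530-1.1 was at 4.86, 5.61, 6.35 and 5.14 CPM in the K326 libraries, 2.60, 1.75 and 4.51 CPM in nic1/nic2, 6.42, 6.13, 5.48, 5.62 and 6.34 CPM in myc2a and 7.77, 7.23, 7.83 and 7.15 CPM in the triple recessive. It was higher in myc2a than in nic1/nic2, with a log2 difference of 1.10 ± 0.23 (SE), with an adjusted p of 0.0218 by edgeR. Between nic1/nic2 and K326 the log2 difference was -0.997 ± 0.23 (SE), with an adjusted p of 0.051 by edgeR. The call was lost without nic1/nic2 replicates 1 (adjusted p = 0.0582) or 2 (0.0741) and without myc2a replicate 2 (0.0564), over a range of 0.000193 to 0.0741.

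Ntab18g020530-1.1 lies in a stretch of ID group 18 whose 162 gene models that passed the limits had a median of 52.5 to 54.6% of K326 in the 3 nic1/nic2 libraries and 102 to 106% in the triple recessive. Ntab11g015160-1.1 lies in a stretch of ID group 11 where the median of 516 gene models was 50.1 to 56.1% of K326 in myc2a replicates 2 to 5, 98.5% in myc2a replicate 1 and 102 to 104% in the triple recessive. Ntab11g015160-1.1 was at 5.88, 4.25, 6.60 and 4.72 CPM in the K326 libraries, 6.07, 5.84 and 6.59 CPM in nic1/nic2, 6.68, 2.27, 2.04, 2.96 and 1.27 CPM in myc2a and 7.56, 9.09, 9.06 and 8.13 CPM in the triple recessive. Its myc2a libraries were low except replicate 1, and it was not called between myc2a and K326 (log2 fold change -0.81 ± 0.34 SE, with an adjusted p of 0.858 by edgeR). For both gene models the distance of the triple recessive from K326 was smaller than from the genotype with the low stretch. The bounds of both stretches come from an earlier analysis of these data.

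The contrasts with the triple recessive were used by the rule, so the counts that follow describe the members and show nothing further. edgeR called 14 lower and 5 higher members against K326, where 0.181% of all gene models were lower and 0.114% higher (0.295% together). Against nic1/nic2 it called 7 and 2, with backgrounds of 0.0977% and 0.307% (0.405% together), and against myc2a 14 and 6, with 0.174% and 0.184% (0.358% together). In all 3 contrasts, 6 lower members were called, Ntab19g019580-1.1, Ntab19g019560-1.1, Ntab17g022870-1.1, Ntab17g022310-1.1, Ntab10g015700-1.1 and Ntab01g008660-1.1, and 1 higher member, Ntab03g030050-1.1. Ntab01g008660-1.1, named after its values were seen, had 6.20 ± 0.385 CPM (SD, n = 4) in K326 and 2.40 ± 1.16 in the triple recessive (n = 4). For the remaining members a gap above 0 did not come with a call in every contrast. Single libraries moved these counts: without myc2a replicate 1 the counts against myc2a were 27 lower and 19 higher, and without triple recessive replicate 4 the lower count was 4. Without any 1 of the 4 K326 libraries, the lower count against K326 was 8 or 9, and without myc2a replicate 5 the counts against nic1/nic2 were 12 lower and 6 higher. Leaving out K326 replicates 1 or 3, nic1/nic2 replicate 2, myc2a replicates 2 to 4 or triple recessive replicates 1 or 2 gave 5 to 9 lower members against myc2a. Against K326, triple recessive replicates 1, 2 and 4 gave 8, 9 and 6 lower members when left out. Higher members against K326 numbered 2 or 3 without K326 replicates 1, 2 or 4 or triple recessive replicates 1, 2 or 4, and 8 or 9 without triple recessive replicate 3 or myc2a replicate 1. Against nic1/nic2 they numbered 4 without nic1/nic2 replicate 1.

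The rule limited the lower members only at their lowest library among the 12, and did not use how high the others reached. In 20 of the 40 lower members myc2a replicate 5 was the highest of the 12 libraries, against 17.5% of all gene models that passed the limits. Lower members had a median of 0.29 above the myc2a mean in that library on the log2 scale, and of 0.17 above the nic1/nic2 mean in nic1/nic2 replicate 3, against 0.09 and 0.05 over all gene models. In myc2a replicate 1 the median was -0.18, against 0.01 over all gene models. That library was the lowest of the 12 in 12 of 40, against 13.1% of all, a count that the rule used. On TMM-scaled library sizes myc2a replicate 5 was the highest in 10 of 40, against 13.0% of all, and the median deviation was 0.19. On that scale the median in nic1/nic2 replicate 3 was 0.11, and myc2a replicate 1 was the lowest in 6 of 40, against 10.8% of all. Without myc2a replicate 5 the median in myc2a replicate 1 was -0.10. For the higher members the rule used the highest of the 12, and myc2a replicate 1 was that library in 10 of 40, against 9.90% of all.

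With counts scaled to library totals, the lower members, chosen by the lowest of the 12 libraries, varied together within genotypes. Their deviations from the genotype means had a mean pairwise correlation of 0.232, against 0.0995 for the higher members and 0.015 for all gene models that passed the limits, over 12 libraries that share depth and scaling. On TMM-scaled sizes the values were 0.113, 0.148 and 0.00266, and without myc2a replicate 5 they were 0.0792, 0.121 and 0.00674. The value of the lower members thus fell by more than 1.5 times under either change, and lay below that of the higher members under both. How much the choice by the lowest library adds to it was not tested. The spread between libraries of a genotype was a median SD of 0.22 on the log2 scale in the lower and 0.18 in the higher members, against 0.25 over all gene models, as the rule favours.

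**Figure D5:**
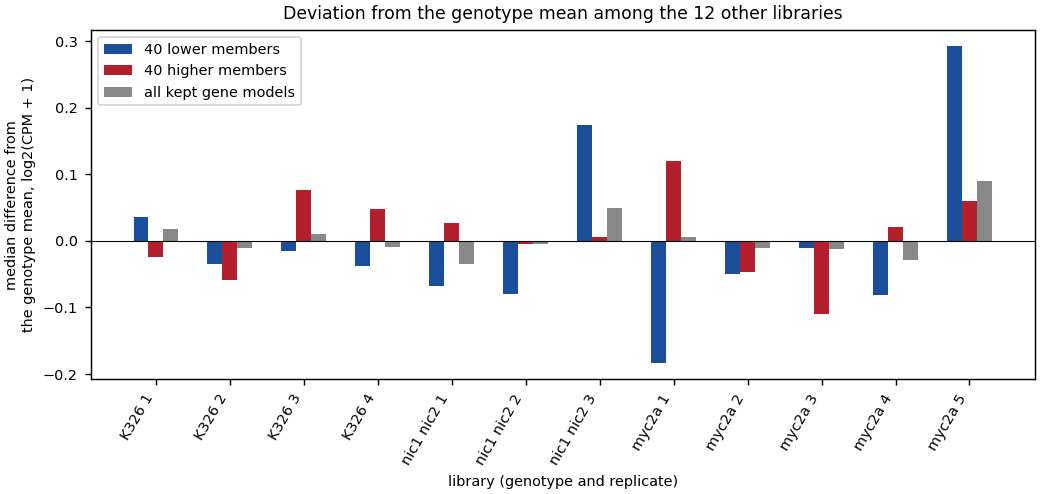
Median deviation from the genotype mean on the log2(CPM + 1) scale (vertical axis) in each of the 12 libraries outside the triple recessive (horizontal axis), for the lower members (blue), the higher members (red) and all gene models that passed the limits (grey). The lower members peak in myc2a replicate 5 (0.29) and dip in myc2a replicate 1 (-0.18). The median of the higher members there is 0.12, in a library the rule used for them.

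Neighbours by serial number lay in the direction of the members somewhat more often than all gene models did. The difference between these shares was not tested. Counting used the 27818 gene models that averaged 5 CPM or more, without the minimum in the triple recessive, which the difference itself decides. This count was added after the data were seen. Within 100 serial numbers of the lower members, 175 of 370 gene models that are not members (47.3%) were lower in the triple recessive, against 42.8% of all. By over 0.5 on the log2 scale, 25 (6.76%) were lower, against 3.75% of all, and the 4 gene models beside the pair in ID group 19 make up 8 of these 25, since a neighbour of more than 1 member was counted at each. With the minimum kept, those 4 drop out, and 17 of 362 (4.70%) were lower by that much. Around the higher members, 210 of 334 (62.9%) were higher, against 57.2% of all, and 11 (3.29%) by over 0.5, against 1.67%. Around Ntab11g015160-1.1 11 of 11 neighbours were higher, and around Ntab18g020530-1.1 15 of 16. Both lie in the stretches of ID groups 11 and 18 described above, and their neighbours are part of the 210. They also supply 3 and 1 of the neighbours that were higher by over 0.5. The share without them was not computed. The 80 members lay in 22 ID groups.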

How the data were processed

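The authors deposited a table of raw counts per gene model for 16 root libraries. Per the labels' protocols, root RNA went into directional NEBNext Ultra libraries. The submitters' processing notes name HISAT2 2.1.0, bedtools, SAMtools and FastQC. Genome build, annotation and counting settings are not given in the sources used here. Between 59.7 and 65.6% of counts from 1 to under 200 were even, so a count may not be 1 fragment. Triple recessive columns (MN) were matched to titles (NM) by letters and number, and 0 columns were unused.

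Members were chosen by the gap rule with Python 3.11.15 and pandas 2.3.3. Genotypes were compared with edgeR 4.0.16 in R 4.3.3 (filterByExpr, TMM, quasi-likelihood test, 1 mean per genotype, 16 libraries, Benjamini-Hochberg, threshold 0.05); DESeq2 1.42.0 and limma 3.58.1 were alternatives. The procedure was tested on simulated data. The members and lists were chosen with earlier results of these data known. Named members are the 12 largest gaps in each direction, members within 100 serial numbers of another of the same direction, members called among K326, nic1/nic2 and myc2a, and the 40th and 41st in rank. No list of named genes could be matched.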

Additional observations from a re-analysis of the deposited data

Results flagged for a closer look

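In groups of 4 or 5 libraries, 1 library stood apart from the others in 8 of 96 groups searched over the 32 named gene models. The cutoff has a nominal rate of about 1 in 20 groups. The rate for gene models chosen by the extremes of these same libraries was not computed, and the same libraries recur below. K326 replicate 4 was the highest K326 library in Ntab19g019560-1.1 (47.0 CPM, others 40.1 to 40.7) and in Ntab09g020380-1.1 (37.0 CPM, others 14.4 to 18.0), and the lowest in Ntab07g009270-1.1 (2.62 CPM, others 4.19 to 4.32). K326 replicate 1 was the highest in Ntab05g000480-1.1 (121 CPM, others 100.9 to 104). Myc2a replicate 5 was the highest myc2a library in Ntab03g028260-1.1 (14.3 CPM, others 6.67 to 7.46), in Ntab05g000480-1.1 (135 CPM, others 100.4 to 110.3) and in Ntab07g009270-1.1 (6.70 CPM, others 2.94 to 3.61), and the lowest in Ntab04g010630-1.1 (47.7 CPM, others 55.2 to 58.3).

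In 2 gene models, 2 genotypes that carry the same alleles shifted in opposite directions against their backgrounds. Both are higher members, so the rule fixed the rise in the triple recessive in advance. Ntab01g017260-1.1 was at 0.116 of K326 in myc2a, but in the triple recessive at 1.35 times nic1/nic2. Ntab18g020530-1.1 was at 0.538 of K326 in nic1/nic2, but in the triple recessive at 1.25 times myc2a. It lies in the stretch of ID group 18 described above. The median there was 52.5 to 54.6% of K326 in nic1/nic2 and 102 to 106% in the triple recessive. These differences between backgrounds were not tested, since the members were chosen on the triple recessive.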

How the results depend on the processing

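Counts of positive gaps (54 lower, 134 higher) moved to 83 lower on TMM-scaled sizes and 82 lower on DESeq2 size factors. On each of these scales 37 of the 40 lower members and all 40 higher members had a gap above 0. The gap of Ntab16g001270-1.1 turned negative (-0.023 and -0.017). On TMM-scaled sizes 29 lower and 25 higher members stayed among the 40 largest gaps, and on DESeq2 size factors 30 and 26. Leaving out a library gave 54 to 297 lower and 140 to 322 higher. With K326 replicate 2 left out together with nic1/nic2 replicate 3, an alternative chosen after seeing the data, there were 85 lower and 336 higher. A gap cannot shrink when a library is left out.

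Calls of all gene models between nic1/nic2 and K326 (395) were 2000 with DESeq2, 119 without both libraries and 173 to 746 with 1 library left out. Between myc2a and K326 (73) they were 248 with DESeq2, 473 with limma-voom, 22 without both and 19 to 434; between myc2a and nic1/nic2 (451), 1662, 1167, 195 and 215 to 1371. Lower members called among these genotypes, 1 or 0, became 2 and 2 with DESeq2 and 0 and 0 with limma-voom (nic1/nic2 against K326, myc2a against nic1/nic2), with ranges of 1 to 1, 0 to 0 and 0 to 2. Higher members called between nic1/nic2 and K326 were 2 with DESeq2, 1 with limma-voom, 1 without both and 0 to 1, and in the other contrasts 1 to 2 and 1 to 3.

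For the triple recessive, lower members called against K326, nic1/nic2 and myc2a (14, 7, 14) were 27, 17 and 30 with DESeq2, 27 against K326 and 27 against myc2a with limma-voom, 8 against K326 without both libraries, and 6 to 19, 5 to 12 and 4 to 27. Higher members (5, 2, 6) were 16, 13 and 19 with DESeq2, 23, 5 and 22 with limma-voom, 8 against K326 with library size only, 3 against K326 without both, and 2 to 9, 2 to 6 and 4 to 19. The causes were not tested.

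With the replicate number as a block, myc2a replicate 5 was left out, since no other library has its number. That fit called 34 gene models between myc2a and K326, against 37 without the same library and with no block. Among members it called 3 higher against K326 and 8 lower against myc2a for the triple recessive. An effect of the block and of the missing library cannot be told apart in these counts. Of 21 same-numbered pairs, 5 had a correlation over 0.1 (-0.188 to 0.18). Pairs with different numbers were not set beside them, so whether the numbers pair the libraries was not settled. The lowest value of a member in a library was 10 counts.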
